A study of Schizosaccharomyces pombe with 16 samples.

Results

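The Y1F and S2A strains of the fission yeast Schizosaccharomyces pombe carry different single substitutions in the repeats of the RNA polymerase II tail, and the 2 libraries of Y1F were set directly against the 2 libraries of S2A. These 4 libraries were taken by their strain labels from 16 in all, which cover 8 strains with 2 biological replicate cultures each. Polyadenylated RNA of cells in YES, a rich medium, at 30 °C and an OD600 between 0.4 and 0.7 was sequenced as strand-specific paired-end libraries, and the deposited read counts per annotated feature were used. The Y1F strain is labelled rpb1CTD-Y1F and is h-, with the markers ade6, ura4-D18 and leu1–32. The S2A strain is labelled rpb1CTD-S2A and is h+, with the same 3 markers, and ura4 had 0 reads in all 16 libraries. Most levels are also given for the WT strain, labelled rpb1CTD-WT 1-18 and h-, and a second comparison used Y1F-S7A and S2A-S7A, which are both h-. Mating type thus goes with the substitution between Y1F and S2A, where the effects of the 2 cannot be told apart, but not between Y1F-S7A and S2A-S7A. A difference between Y1F and S2A also does not say which of the strains departed from WT, so WT levels are printed beside it. The counted reads were 21506464 and 23318831 in the Y1F libraries and 25399752 and 21297550 in the S2A libraries. Libraries with the same replicate number resembled each other across strains, and the second principal component, with 13.2% of the variance, separated the numbers.

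The largest subunit of RNA polymerase II, Rpb1, ends in a carboxy-terminal domain (CTD) made of repeats of 7 residues, in which tyrosine is at position 1, serine at positions 2, 5 and 7, and threonine at position 4. Kinases and phosphatases change the phosphorylation of these residues while the polymerase moves along a gene, and the tail recruits factors for capping, splicing, cleavage and polyadenylation. In Y1F the tyrosine is replaced by phenylalanine, which lacks the hydroxyl group, and in S2A the serine at position 2 is replaced by alanine. Fission yeast transcribes many long non-coding RNAs, often from the strand opposite to a coding gene, and keeps meiotic, subtelomeric and nutrient-repressed genes at low levels in rich medium.

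The repeats themselves show how near the 2 substituted residues lie to each other. The reference gene for rpb1 (SPBC28F2.12, RefSeq build ASM294v3) codes for 24 repeats that match the consensus exactly, the longest unbroken run holding 20 and starting at residue 1613. The first 4 repeats of that run are printed from chrII:1596288-1596371, plus strand, with the codons of the tyrosine at position 1 and the serine at position 2, the residues that the strains replace, in capitals; the strains' own alleles were not read.
rpb1 repeats: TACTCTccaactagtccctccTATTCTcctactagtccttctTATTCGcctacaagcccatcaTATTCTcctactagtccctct
Over the 24 exact repeats the tyrosine codon was TAT in 21 and TAC in 3, and the first serine codon was TCT in 14, TCC in 4 and another in 6. The mRNA of rpb1 had 344 and 363 CPM (reads of the feature per 1000000 of the library's scaled total) in the Y1F libraries, 264 and 303 CPM in the S2A libraries and 255 and 368 CPM in the WT libraries. Its log2 fold change, Y1F over S2A, was 0.32 ± 0.18 (SE), with an edgeR adjusted p of 0.41.

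Of 6420 features with enough reads to test, 385 differed between Y1F and S2A, which is 6%: 82 were higher in Y1F (1.28%) and 303 were lower (4.72%). A call here is a Benjamini-Hochberg adjusted p under 0.05 in edgeR's quasi-likelihood test over all 16 libraries, and 1110 features had an unadjusted p under 0.05. Non-coding RNAs held 200 of the calls, 15% of the 1333 tested: 188 were lower in Y1F (14.1%) and 12 higher (0.9%). Among 4994 protein-coding features 183 were called (3.66%), 114 lower (2.28%) and 69 higher (1.38%). The median log2 fold change was -0.28 over the non-coding RNAs, 0.02 over the protein-coding features and -0.01 over all features. With the replicate number as a block, 1087 features were called (16.9%), 420 higher (6.54%) and 667 lower (10.4%). By class the block gave 44 higher and 285 lower non-coding RNAs, and 374 higher and 381 lower protein-coding features, an even split that the fit without it did not have. The count fell whichever of the 4 libraries was left out, in fits that leave 1 library for that strain. In all 4 of those fits 111 features were called, 18 higher and 93 lower.

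**Figure D1:**
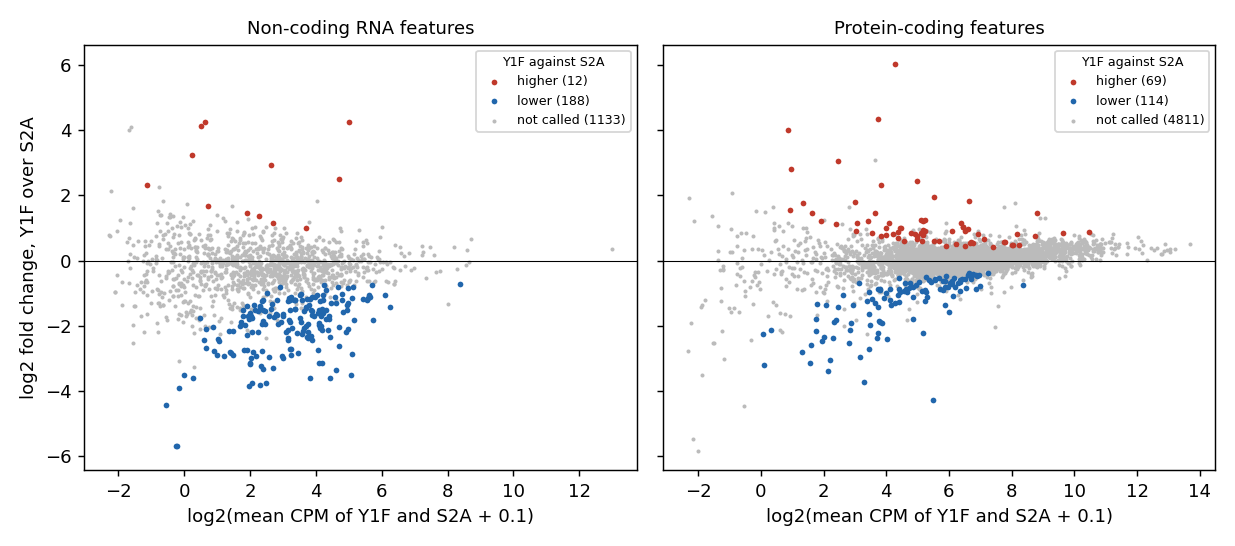
Log2 fold change, Y1F over S2A, against the mean level of the 4 libraries as log2(CPM + 0.1), 1 point per tested feature, for non-coding RNAs on the left and protein-coding features on the right. Red points are the 12 non-coding and 69 coding features called higher in Y1F, blue points the 188 non-coding and 114 coding features called lower.

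Most of the non-coding RNAs that were lower in Y1F, 180 of 188, lie antisense to a protein-coding feature in the authors' annotation. In all, 910 tested non-coding RNAs have such a partner, and of these 180 were lower in Y1F (19.8%) and 5 higher, with a median log2 fold change of -0.43 (263 and 30 with the replicate block). Of 241 non-coding RNAs with no antisense partner, 5 were lower (2.07%) and 4 higher, with a median of 0.02 (13 and 10 with the block). The classes also differed in level and length: the median of the average log2 CPM was 2.66 for the antisense class and 1.40 for those without a partner, and the median length was 1316 and 698 bases.

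Non-coding RNAs were therefore also counted within 3 equal classes of level. In the lowest class 37 of 250 antisense RNAs were lower (14.8%), against 3 of 124 without a partner (2.42%). In the middle class these counts were 75 of 326 (23%) and 1 of 60 (1.67%), and in the highest class 68 of 334 (20.4%) and 1 of 57 (1.75%). With the replicate block they were 58 and 5, 97 and 3, and 108 and 5 in the lowest, middle and highest classes.

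By the median, the non-coding RNAs that were lower in Y1F were nearer to WT in Y1F than in S2A. Taken over all 188 lower non-coding RNAs, the median level was 4.21 CPM in Y1F, 15.1 CPM in S2A and 3.02 CPM in WT. Nearness to WT was not counted RNA by RNA, and single RNAs could go the other way. The antisense RNA SPNCRNA.609 had 13.8 and 9.94 CPM in Y1F, 63.7 and 38.2 CPM in S2A and 37.8 and 34.5 CPM in WT. Both Y1F libraries were below both S2A libraries for all 188, which the call itself favours. Both WT libraries were below both S2A libraries for 182 of the 188, which a call that takes RNAs high in S2A also favours, and for 416 of the 1133 non-coding RNAs that were not called. The median log2 fold change of the 188 was -1.81, and single values lay between -5.71 and -0.72.

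**Figure D2:**
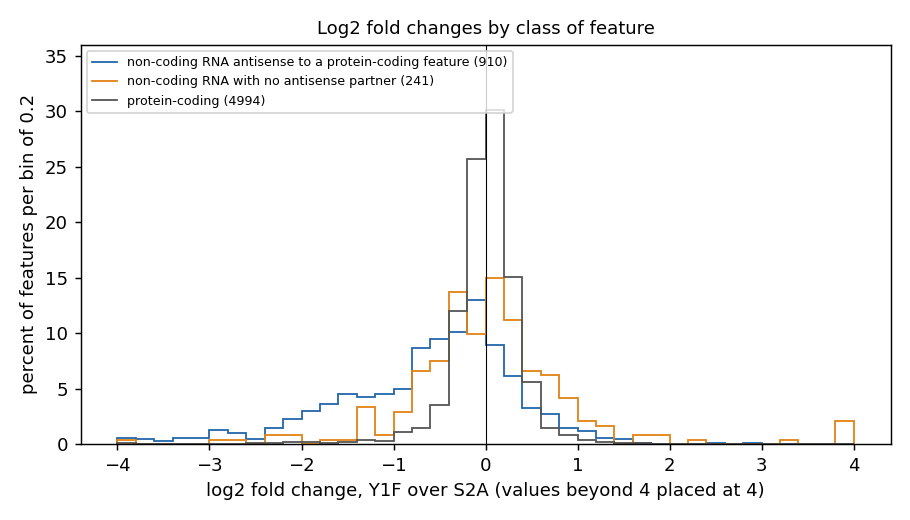
Percent of tested features in bins of 0.2 of the log2 fold change, Y1F over S2A, for 910 non-coding RNAs antisense to a protein-coding feature, 241 with no antisense partner and 4994 protein-coding features, with values beyond 4 placed at 4. The antisense class (median -0.43) reaches further to the left than the other 2 classes (medians 0.02).

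SPNCRNA.803 (chromosome I, 2196440 to 2199126 in the table's coordinates) is a non-coding RNA antisense to hrp1, which encodes a chromatin remodelling enzyme of the CHD family. It had 5.7 and 4.9 CPM in the Y1F libraries, 57.3 and 64.3 CPM in the S2A libraries and 2.01 and 2.32 CPM in the WT libraries. The log2 fold change was -3.52 ± 0.24 (SE), edgeR adjusted p 3.6e-05, and the strains did not overlap. The sense gene hrp1 did not pass the test, with 173 and 148 CPM in Y1F, 157 and 135 CPM in S2A and a log2 fold change of 0.14 ± 0.14.

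SPNCRNA.581 (chromosome III, 838087 to 839594), antisense to the DNAJC11 family gene mib1, had 2.46 and 4.06 CPM in Y1F, 33.2 and 45.9 CPM in S2A and 1.14 and 1.42 CPM in WT. Its log2 fold change was -3.60 ± 0.35 (edgeR adjusted p 0.00021), while that of mib1 was 0.11 ± 0.19 without a call. SPNCRNA.1206 (chromosome III, 1565774 to 1570757) is antisense to nup211, a nuclear pore protein gene, and had 4.4 and 4.19 CPM in Y1F, 47.3 and 40.6 CPM in S2A and 2.74 and 3.91 CPM in WT. That RNA's log2 fold change was -3.35 ± 0.28 (edgeR adjusted p 9.1e-05), and that of nup211 was -0.13 ± 0.25 without a call. At each of these 3 loci the antisense RNA was lower in both Y1F libraries than in either S2A library, while the sense gene's levels in the strains overlapped. In bulk RNA, fewer cells that express an RNA and less of it per cell cannot be told apart.

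The named group has 3 further antisense RNAs: SPNCRNA.1273 (antisense to ski3, a subunit of the Ski RNA decay complex) at -3.14 ± 0.36, SPNCRNA.678 (antisense to pan2 and a krr family gene) at -2.88 ± 0.28, and SPNCRNA.1005 (antisense to hca4, an RNA helicase gene) at -2.62 ± 0.29. All 6 named antisense RNAs kept their call in each fit without 1 library.

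Across the whole group, the coding genes opposite the lower RNAs had a median change near 0. The 180 lower antisense RNAs have 214 distinct tested coding partners, of which 3 were higher in Y1F (1.40%), 10 lower (4.67%) and 201 not called, with a median log2 fold change of -0.01 (17 higher and 27 lower with the replicate block). These shares stand beside 1.38% higher and 2.28% lower among all protein-coding features. Lower calls were also not limited to the antisense RNAs of highly expressed genes: they made up 14.2%, 25.2% and 20.2% of antisense RNAs whose partner was in the lowest, middle and highest class of partner level, with 302 RNAs in each. Whether incomplete strand separation in the libraries added to these differences was not tested.

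Protein-coding features were named by 1 rule: called, an average log2 CPM of at least 3, both Y1F libraries beyond both S2A libraries, and the largest changes, with called members of the gene lists added. Of 56 called features that the rule names, 27 were called in each of the 4 fits without 1 library. Among those with values here, the call was lost in at least 1 of these fits for SPNCRNA.388, snR92, rpt6, gpa1, ste4, frp1, shu1, ctr4, zrt1, isp7, SPAC26H5.09c and pre10, which were higher. The same held for gal7, tgd1, SPAC11D3.10, SPAC11D3.14c, inv1, mal1, eno102, pfl7, gsf2, rec10, cuf2, spn5, mtl1 and dsh1, which were lower. Counts of called list members below stand beside 1.38% higher and 2.28% lower among all protein-coding features.

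**Figure D3:**
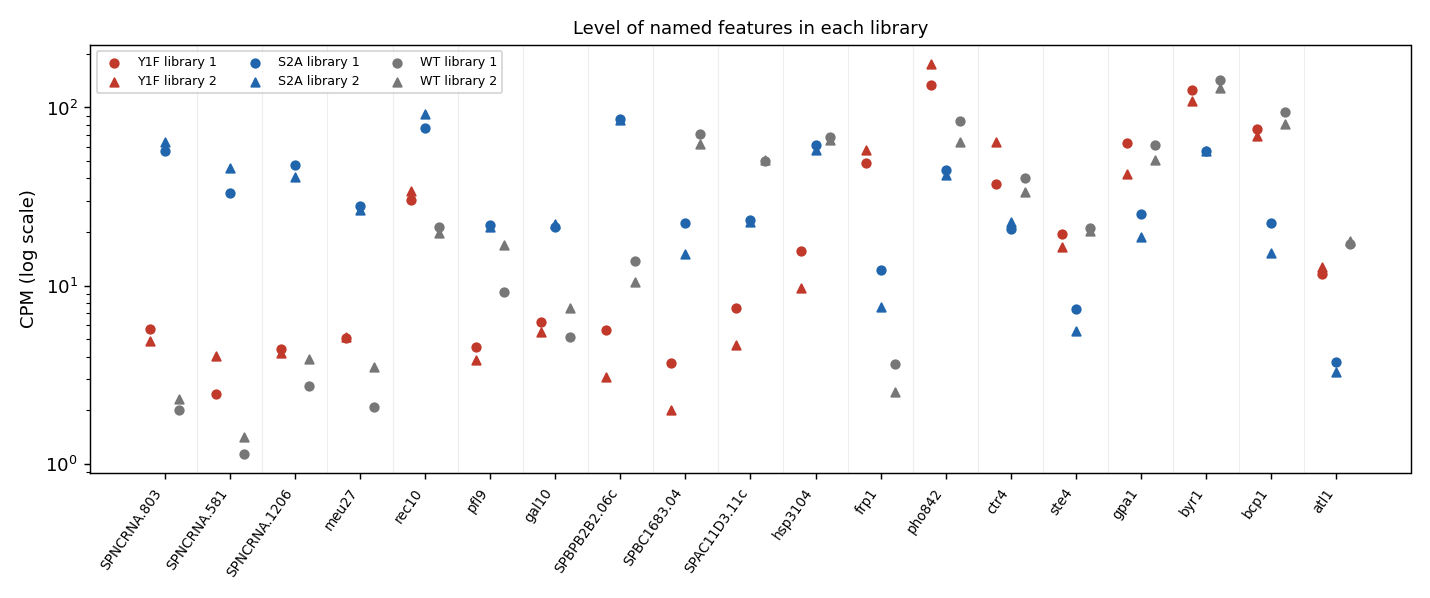
CPM on a log scale of 19 named features in each Y1F, S2A and WT library (circles library 1, triangles library 2). From SPNCRNA.803 to hsp3104 the Y1F libraries are below both S2A libraries, and from frp1 to atl1 they are above them, while WT is on either side.

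The features most raised in Y1F included genes of the mating-type region on chromosome II and a pheromone gene. SPBC23G7.10c (chromosome II, 2118146 to 2119536, an NADH-dependent flavin oxidoreductase gene) had 54.5 and 22.4 CPM in the Y1F libraries, 0.648 and 0.496 CPM in the S2A libraries and 19 and 7.99 CPM in the WT libraries. With a log2 fold change of 6.04 ± 0.62 (edgeR adjusted p 0.00026) it changed most of all features called higher in Y1F. The h- strains Y1F and WT were both far above the h+ strain S2A, and Y1F was above WT.

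Its neighbours moved the same way. Of the region's other features, SPNCRNA.388 rose by 4.27 ± 0.81 and mag2 (a DNA glycosylase of base excision repair) by 4.01 ± 0.63 on the log2 scale. The mag2 change rests on 6 and 4 reads in the S2A libraries, against 59 and 80 in Y1F. On the same scale SPNCRNA.1487 rose by 2.94 ± 0.23 and SPNCRNA.1488 by 2.52 ± 0.26. For snR92 (a small nucleolar RNA) the rise was 2.47 ± 0.59, and for rpt6 (an ATPase of the proteasome cap) 0.76 ± 0.14. The 6 features SPNCRNA.388, SPBC23G7.10c, SPNCRNA.1487, mag2, snR92 and rpt6 are adjacent among the tested features, the longest run of neighbours called in the same direction, though SPNCRNA.1487 lies over mag2 and snR92 on the other strand. In the same region SPBC23G7.13c and SPBC23G7.14 were tested and not called. A ribosomal protein gene there, rpp202, had a log2 fold change of 0.78 ± 0.24 and was not called in edgeR without the block (adjusted p 0.093), but was with the replicate block (0.019) and in DESeq2 (0.022). The cassette genes mat1-Mc, mat1-Mi, mat3-Mc and mat3-Mi, SPNCRNA.389 and SPNCRNA.390 are listed at 0 in all 16 libraries, so the cassettes give no reading of mating type here.

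**Figure D4:**
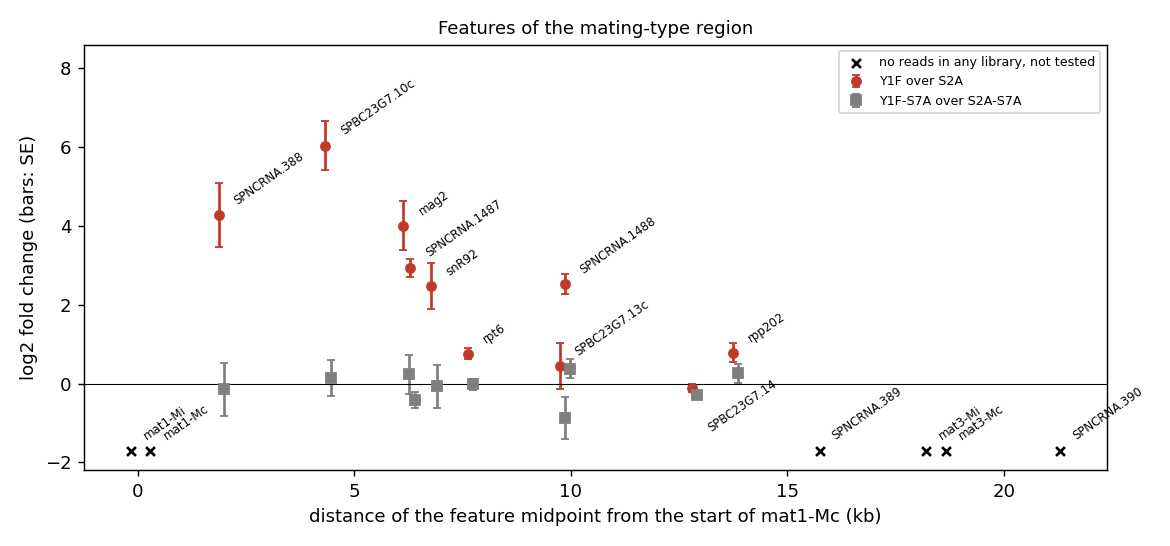
Log2 fold changes with SE of features of the mating-type region against the distance of each feature's midpoint from the start of mat1-Mc, for Y1F over S2A (red) and Y1F-S7A over S2A-S7A (grey). SPBC23G7.10c is at 6.04 in the first comparison and 0.14 in the second, and crosses mark features listed at 0 in every library.

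Where both strains were h-, none of these features was called, though SPBC23G7.14 was with the replicate block (edgeR adjusted p 0.032) and in DESeq2 (0.028). Y1F-S7A over S2A-S7A gave log2 fold changes of 0.14 ± 0.46 for SPBC23G7.10c, -0.15 ± 0.68 for SPNCRNA.388, -0.42 ± 0.20 for SPNCRNA.1487 and 0.23 ± 0.50 for mag2, none of them called. SPBC23G7.10c had 31.2 and 24.2 CPM in Y1F-S7A and 29.9 and 20.4 CPM in S2A-S7A. The test of the change in the difference itself called 2 of 6420 features (0.0312%), SPNCRNA.1487 and SPBC23G7.10c, and 25 with the replicate block (0.389%). SPNCRNA.1487 was called there in all 8 fits without 1 library and SPBC23G7.10c in 3 of the 8.

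Markers of the 2 mating types were examined for the same reason. The gene for the M-factor precursor, mfm2, encodes the pheromone of M cells, which h- strains are, and had 32.8 and 17.9 CPM in Y1F, 0.921 and 1.58 CPM in S2A and 35.8 and 24.5 CPM in WT. Its log2 fold change was 4.36 ± 0.47 (edgeR adjusted p 0.00033), and both h- strains lay far above the h+ strain. Between the h- strains Y1F-S7A, at 60.5 and 47.5 CPM, and S2A-S7A, at 21 and 34.5 CPM, mfm2 was not called. The log2 fold change there was 0.96 ± 0.38 (edgeR adjusted p 0.45). Among 7 tested M-cell genes mfm2 was the only call, and the list's median was 0.38. The M-cell receptor gene mam2 had 4.3 and 4.01 CPM in Y1F and 6.93 and 4.87 CPM in S2A, with a log2 fold change of -0.51 ± 0.32. None of 4 P-cell genes was called, with 1 lower at an unadjusted p under 0.05. The P-cell gene map4 had 51.6 and 51.8 CPM in Y1F, 73.3 and 82.5 CPM in S2A and 36.6 and 49.8 CPM in WT. Its log2 fold change was -0.59 ± 0.18, with an edgeR adjusted p of 0.094, which was 0.0085 with the replicate block and 0.043 in DESeq2. The other 3 were called in none of these, and map3, the receptor gene of P cells, was at 17.4 and 12.4 CPM in Y1F and at 17.8 and 12.3 CPM in S2A. Summed over the list, M-cell genes had 190 and 145 CPM in Y1F and 146 and 140 CPM in S2A. The sum of P-cell genes was 710 and 646 CPM in Y1F and 570 and 668 CPM in S2A. Most of that sum was sxa1, with 634 and 575 CPM in Y1F, 470 and 565 CPM in S2A and 481 and 510 CPM in WT. It therefore says little of the other P-cell genes, of which map2 had 6.14 and 6.78 CPM in Y1F and 8.7 and 8.17 CPM in S2A. Of the markers on these lists mfm2 was called, map4 was called with the block and in DESeq2, and the part of mating type in the other differences was not tested.

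Some genes of pheromone signalling, which both mating types use, were also higher in Y1F. Of 23 genes listed for mating and differentiation signalling, 3 rose and none fell, with a median of -0.02 (3 each with the replicate block). Over all protein-coding features 1.38% were higher and 2.28% lower. The G-protein alpha subunit gene gpa1 had 63 and 42.6 CPM in Y1F, 25.3 and 18.7 CPM in S2A and 61.8 and 50.9 CPM in WT. The log2 fold change of gpa1 was 1.26 ± 0.27 (edgeR adjusted p 0.016). The MAP kinase kinase gene byr1 had 125 and 109 CPM in Y1F, 57 and 56.8 CPM in S2A and 143 and 128 CPM in WT, a log2 fold change of 1.04 ± 0.18 (edgeR adjusted p 0.0042).

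The remaining gene, ste4, encodes an adaptor protein that works with the kinase Byr2. It had 19.6 and 16.6 CPM in Y1F, 7.44 and 5.55 CPM in S2A and 21.1 and 20.4 CPM in WT, with a log2 fold change of 1.47 ± 0.36 (edgeR adjusted p 0.033). For gpa1, byr1 and ste4 alike, the Y1F libraries were above both S2A libraries and nearer to WT. The transcription factor Ste11 switches on genes of mating when nutrients run out. Its gene, ste11, was not called, at 16.3 and 18.8 CPM in Y1F and 11.4 and 10.9 CPM in S2A.

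Some genes for the uptake of iron were higher in Y1F. Of 11 iron uptake genes 2 rose and 1 fell, with a median log2 fold change of 0.56 (3 and 2 with the replicate block). These counts stand beside 1.38% higher and 2.28% lower among all protein-coding features. The ferric-chelate reductase gene frp1 had 48.8 and 58.1 CPM in Y1F, 12.3 and 7.58 CPM in S2A and 3.66 and 2.54 CPM in WT. It changed by 2.43 ± 0.52 (edgeR adjusted p 0.015), so that both mutants were above WT and Y1F was higher than S2A, but the call was lost in all 4 fits without 1 library. The haem uptake gene shu1 had 15.2 and 4.15 CPM in Y1F and 1.67 and 0.587 CPM in S2A, a change of 3.06 ± 0.75 (edgeR adjusted p 0.033), with a wide gap between the Y1F libraries.

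The gene abc3, which encodes a transporter of the vacuolar membrane, ran the other way. It had 23.1 and 22.2 CPM in Y1F, 57.3 and 48.8 CPM in S2A and 50.5 and 45 CPM in WT. Its log2 fold change was -1.23 ± 0.20 (edgeR adjusted p 0.0037). In the test over all libraries the siderophore transporter gene str3 and the iron permease and oxidase genes fip1 and fio1 were not called, although fip1 had 608 and 929 CPM in Y1F, 292 and 329 CPM in S2A and 41.6 and 52.6 CPM in WT. For fip1 the log2 fold change was 1.31 ± 0.52 (edgeR adjusted p 0.21), and for str3 it was 3.08 ± 0.92 (edgeR adjusted p 0.082). Fitted on the compared libraries alone, both were called, with edgeR adjusted p of 0.025 for fip1 and 0.0044 for str3.

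Iron uptake genes of fission yeast are repressed by the GATA factor Fep1 when iron is plentiful. The window before frp1 (RefSeq, build ASM294v3, chrII:162393-162642, minus strand) is shown for the ferric reductase gene described above, and the matches to AGATAA or TGATAA in its 250 bases, in capitals, lie 93 and 80 bases before the gene's start.
frp1 upstream: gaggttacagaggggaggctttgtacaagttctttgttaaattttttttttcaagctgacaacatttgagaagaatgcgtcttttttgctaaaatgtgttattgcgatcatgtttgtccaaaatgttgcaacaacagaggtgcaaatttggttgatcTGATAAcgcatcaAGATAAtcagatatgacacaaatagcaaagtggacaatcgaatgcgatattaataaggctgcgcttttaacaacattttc
On both strands, AGATAA or TGATAA is in 39.8% of 5112 such windows of coding genes and in those of 6 of the 11 iron uptake genes. Both shu1, which rose, and abc3, which fell, are among the 6.

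Single transporters of other nutrients were higher in Y1F as well. The phosphate transporter gene pho842 had 133 and 175 CPM in Y1F, 44.7 and 41.7 CPM in S2A and 84.2 and 64 CPM in WT, a log2 fold change of 1.84 ± 0.30 (edgeR adjusted p 0.0034). It was the only 1 of 9 phosphate starvation genes called. The acid phosphatase gene pho1 was at 788 and 749 CPM in Y1F and 732 and 750 CPM in S2A, both below the 1432 and 1200 CPM of WT, with a log2 fold change of 0.05 ± 0.19. Of the other lists, the copper transporter gene ctr4 rose by 1.22 ± 0.29 and the zinc transporter gene zrt1 by 0.96 ± 0.25 on the log2 scale. An oxygenase gene tied to amino acid uptake, isp7, rose by 1.03 ± 0.20. For zrt1 both mutants were below WT, with 96.8 and 160 CPM in Y1F, 68.5 and 63.3 CPM in S2A and 216 and 270 CPM in WT. The ctr4 levels were 37.4 and 64.1 CPM in Y1F, 20.8 and 22.9 CPM in S2A and 40 and 33.7 CPM in WT. Those of isp7 were 122 and 114 CPM, 51 and 64.4 CPM and 126 and 138 CPM in the same order. The copper list had 1 of 6 genes higher (3 with the replicate block) and the zinc list 1 of 7, and none lower. The list of nitrogen, amino acid and purine transport, which holds isp7, had 2 of 29 higher and 4 lower (5 each with the block). Its lower members include SPBC1683.04, SPAC11D3.10 and SPAC11D3.11c, which return below. SPBC1683.04 is annotated as a glycosyl hydrolase gene and SPAC11D3.11c as a truncated zinc finger protein gene, neither of them a transporter. Among all protein-coding features 1.38% were higher and 2.28% lower.

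A pair of genes of detoxification and DNA repair were near WT in Y1F and well below it in S2A. The thioredoxin peroxidase gene bcp1 had 75.9 and 69.5 CPM in Y1F, 22.5 and 15.3 CPM in S2A and 94.1 and 80.6 CPM in WT. This gave a log2 fold change of 1.94 ± 0.17 (edgeR adjusted p 0.00011), and it was called in all 4 fits without 1 library. The gene atl1 encodes an alkyltransferase-like protein that binds alkylated guanine in DNA, and had 11.6 and 12.7 CPM in Y1F, 3.72 and 3.29 CPM in S2A and 17.2 and 17.8 CPM in WT, a change of 1.79 ± 0.21. For both, S2A was below every Y1F and WT library. Of 24 oxidative stress genes, a list without bcp1, 1 rose and none fell (7 and 1 with the replicate block). It was gst1, a glutathione S-transferase gene, at 2.95 and 3.52 CPM in Y1F and 0.546 and 0.361 CPM in S2A. WT was above both strains, at 8.91 and 6.96 CPM, and the S2A values rest on 16 and 8 reads. Also higher were SPCC965.14c (a cytosine deaminase gene) by 2.32 ± 0.27 and SPAC26H5.09c (an oxidoreductase gene) by 1.47 ± 0.26.

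Coding genes near the ends of chromosomes I and II were among those lower in Y1F. Of 71 coding features within 100 kb of those ends, 18 were lower (25.4%) and 1 higher, and of 4024 elsewhere on the 2 chromosomes 74 were lower (1.84%) and 52 higher. With the replicate block these counts were 29 and 2 near the ends, and 292 each elsewhere. The median log2 fold changes were -0.89 and 0.02; the ends of chromosome III were not included, and the coding features near the ends were also less abundant, with a median average log2 CPM of 2.79 against 6.47.

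SPBPB2B2.06c (chromosome II, 4469018 to 4471207), annotated as a phosphatase gene, showed the largest of these differences, with 5.65 and 3.08 CPM in Y1F, 85.8 and 84.7 CPM in S2A and 13.8 and 10.5 CPM in WT. On the log2 scale it changed by -4.29 ± 0.43 (edgeR adjusted p 0.00024). Y1F was below WT and S2A above it. Close by, the run of pan5, gal7, tgd1 and gal10 (chromosome II, 4478687 to 4487569) was lower as a whole. It holds 2 of the 3 listed genes of the galactose cluster that were called, gal10 and gal7 (all 3 were lower with the replicate block), and gal10 had 6.28 and 5.53 CPM in Y1F, 21.3 and 22.1 CPM in S2A and 5.16 and 7.52 CPM in WT. The changes were -1.88 ± 0.29 for gal10, -1.25 ± 0.26 for tgd1, -1.11 ± 0.20 for gal7 and -0.85 ± 0.13 for pan5.

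On chromosome I, the 5 neighbours SPAC11D3.10, SPAC11D3.11c, hsp3104, SPAC11D3.14c and SPNCRNA.609 (124907 to 135736) formed another run of lower calls. The gene hsp3104, a glyoxalase of the ThiJ family, had 15.7 and 9.67 CPM in Y1F, 61.4 and 57.4 CPM in S2A and 67.9 and 65.5 CPM in WT, a log2 fold change of -2.23 ± 0.32 (edgeR adjusted p 0.0015). SPAC11D3.11c, annotated as a truncated zinc finger protein gene, had 7.54 and 4.68 CPM in Y1F, 23.3 and 22.7 CPM in S2A and 49.9 and 50.9 CPM in WT, a change of -1.91 ± 0.31. In both genes Y1F was below S2A and S2A below WT.

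The remaining runs of at least 3 neighbours called lower were SPNCRNA.631, tra2 and SPNCRNA.632, SPAC922.05c, SPAC922.06 and atd2, pfl7 to SPNCRNA.1312 around abc3, mal1, urh1 and SPNCRNA.1317, and SPNCRNA.1276, pep3 and SPNCRNA.1277. With the runs above they make 8 runs holding 32 features. Several contain a gene and its own antisense RNA called in the same direction, which are separate calls only as far as the strands were kept apart in counting.

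Lower coding features also included sugar hydrolases, cell surface proteins and an enolase, a grouping by function that overlaps the one by position. The enolase gene eno102 (chromosome II, 58136 to 59704) and the flocculin gene pfl9 (chromosome I, 5527462 to 5528959) are within 100 kb of an end. Beyond that distance on chromosome II, pfl7 starts at 117892, SPBC1683.04 at 142262 and mal1 at 151490. SPBC1683.04, a glycosyl hydrolase gene, had 3.67 and 2.01 CPM in Y1F, 22.5 and 15.1 CPM in S2A and 71.4 and 62 CPM in WT, a log2 fold change of -2.73 ± 0.35 (edgeR adjusted p 0.00093). Of 27 genes for hexose transport and glucose repression 2 fell and none rose (3 and 4 with the replicate block), beside 2.28% lower among all protein-coding features. The invertase gene inv1 had a log2 fold change of -1.30 ± 0.31, and the maltase gene mal1 one of -1.16 ± 0.31. For mal1 both strains, at 11.4 and 7.31 CPM in Y1F and 21.6 and 20.1 CPM in S2A, were below the 62.7 and 47.9 CPM of WT. The inv1 levels were 7.68 and 6.6 CPM in Y1F, 16.5 and 18.7 CPM in S2A and 11.9 and 6.53 CPM in WT. The enolase gene eno102 changed by -1.97 ± 0.45 and was the only call among 17 glycolysis genes.

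Flocculins, cell surface glycoproteins that make cells stick together, had 3 of 13 tested members lower and none higher. Their median was -0.39 (5 lower with the replicate block), and 2.28% of all protein-coding features were lower. The gene pfl9 had 4.54 and 3.83 CPM in Y1F, 21.9 and 21.5 CPM in S2A and 9.28 and 17 CPM in WT, a log2 fold change of -2.37 ± 0.31 (edgeR adjusted p 0.00096). The other 2 were pfl7 at -2.15 ± 0.47 and gsf2 at -0.85 ± 0.19. For pfl7 both strains, at 0.483 and 0.357 CPM in Y1F and 2.12 and 1.62 CPM in S2A, were below the 9.78 and 7.31 CPM of WT. The gsf2 levels were 20.9 and 16.9 CPM in Y1F, 34.4 and 33.7 CPM in S2A and 18.9 and 23.3 CPM in WT. The table's features can be longer than the reference genes, as for pfl7 (3395 bases, against 1437 in RefSeq), mal1 (4141 and 2720) and SPAC11D3.10 (4147 and 1630).

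Meiotic genes were lower in Y1F where they were called. Of 39 listed genes 5 fell and none rose, with a median of -0.23 (6 lower with the replicate block). Among all protein-coding features 2.28% were lower and 1.38% higher. The gene rec10, a component of the linear elements of meiotic chromosomes, had 30.4 and 34.1 CPM in Y1F, 76.3 and 91.8 CPM in S2A and 21.4 and 19.9 CPM in WT, a log2 fold change of -1.38 ± 0.23 (edgeR adjusted p 0.0043). The gene meu6, on the list, and meu27, not on it, are named for their rise in meiosis and changed by -1.81 ± 0.22 and -2.41 ± 0.32. The level of meu27 was 5.12 and 5.13 CPM in Y1F, 27.9 and 26.5 CPM in S2A and 2.1 and 3.52 CPM in WT. The listed genes cuf2 and spn5 changed by -2.34 ± 0.53 and -1.37 ± 0.33. In rec10, meu6 and meu27 both Y1F libraries were between WT and S2A. The meiosis regulator gene mei2 was not called, at 12.1 and 6.55 CPM in Y1F and 5.66 and 3.84 CPM in S2A.

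Several large groups held few or no calls. None of 138 cytosolic ribosomal protein genes was called in edgeR's quasi-likelihood test, where 35 were higher and none lower at an unadjusted p under 0.05. Their median log2 fold change was 0.45 (-0.01 over all features). Of these genes 21 were called higher with the replicate block and 8 in DESeq2, which called 9.63% of all features, 2.88% higher and 6.74% lower. Ribosome biogenesis (45 genes, median 0.24) had no call in the edgeR test, 5 genes higher at an unadjusted p under 0.05, 12 higher with the block and 4 in DESeq2. Core histones (11 genes, median 0.40) had no call, none at an unadjusted p under 0.05 in edgeR, 2 higher with the block and none in DESeq2. Proteasome genes had 2 of 35 higher (5 with the block), rpt6 of the mating-type region and pre10 at 0.49 ± 0.12. No call fell on the 13 listed RNA polymerase II subunits, the 18 CTD kinases and phosphatases or the 38 genes of capping, elongation, termination and cleavage, whose medians were 0.04, 0.02 and -0.02. At an unadjusted p under 0.05 edgeR had 1, 3 and 3 of them, DESeq2 called none, and the replicate block called none of the first group, 4 of the second and 6 of the third.

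Among 30 genes of the nuclear exosome and RNA elimination 1 fell, the helicase gene mtl1, and with the replicate block 1 also rose. The gene mtl1 had 85.7 and 98.8 CPM in Y1F, 127 and 119 CPM in S2A and 116 and 111 CPM in WT, a log2 fold change of -0.41 ± 0.11 (edgeR adjusted p 0.038). Of 29 RNAi and heterochromatin genes 1 fell (6 with the replicate block, and 1 rose): dsh1, a factor of RNAi at heterochromatin, with a log2 fold change of -0.62 ± 0.15. The calls of mtl1 and dsh1 were lost in every fit without 1 library.

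The second comparison, Y1F-S7A against S2A-S7A, sets the same 2 substitutions side by side where position 7 is also replaced by alanine and both strains are h-, and it shares no library with the first. It called 10 of 6420 features (0.156%), 1 higher (0.0156%) and 9 lower (0.14%), and 535 had an unadjusted p under 0.05. With the replicate block it called 291 (4.53%), of which 111 were higher (1.73%) and 180 lower (2.8%). Without Y1F-S7A library 1, Y1F-S7A library 2 or S2A-S7A library 2 it called none. Among the 385 features called between Y1F and S2A, 371 had the same sign here (96.4%), beside 70.2% of all tested features. Their median log2 fold change was -1.25 in the first comparison and -0.54 in the second. The first value is raised in size by the selection on it, so the medians are not a measure of a weaker difference.

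**Figure D5:**
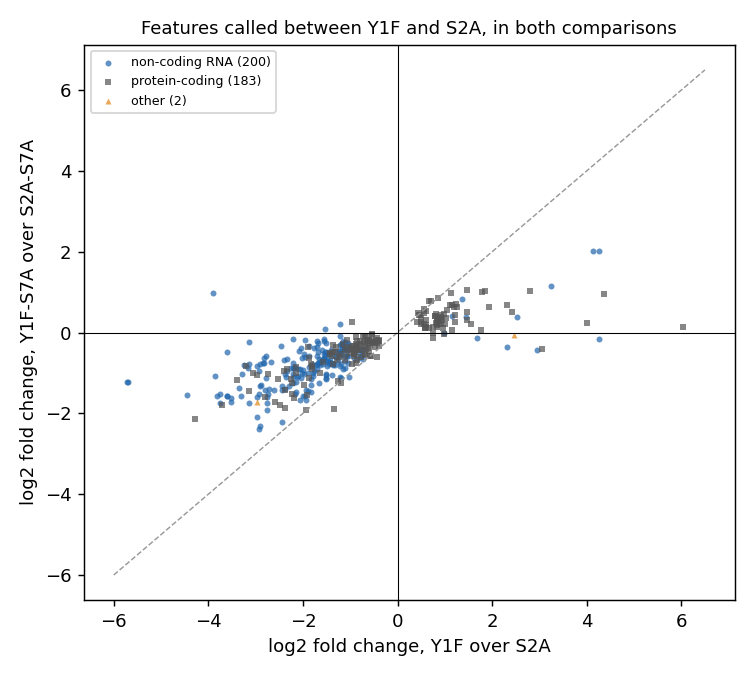
Log2 fold change of Y1F-S7A over S2A-S7A against that of Y1F over S2A for the 385 features called between Y1F and S2A (200 non-coding RNAs, 183 protein-coding, 2 other), with the dashed line marking equal values. Of these, 371 have the same sign on both axes, and their median is -1.25 on the horizontal and -0.54 on the vertical axis.

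Antisense RNAs were again foremost: 7 of the 9 features lower in Y1F-S7A are non-coding RNAs antisense to a coding feature, and each was also called lower in Y1F. SPNCRNA.803 had 14.2 and 16.2 CPM in Y1F-S7A and 46.7 and 45.9 CPM in S2A-S7A, a log2 fold change of -1.61 ± 0.22 (edgeR adjusted p 0.028). With the replicate block the gap between this value and the -3.52 of Y1F over S2A passed the test of the difference (edgeR adjusted p 0.0075). It also did for SPNCRNA.581 (0.0067), SPNCRNA.1206 (0.017), SPNCRNA.1273 (0.023) and SPNCRNA.678 (0.049), but not for SPNCRNA.1005 (0.16). Without the block none of them passed in edgeR (0.083 for SPNCRNA.803), nor in the fit of the compared libraries alone (0.091). In DESeq2 all but SPNCRNA.1005 passed. Mating type and the S7A background both differ between the comparisons and cannot be told apart here. Of the 9 lower features SPNCRNA.799 gave the largest change, -2.31 ± 0.36, with 2.67 and 5.17 CPM in Y1F-S7A and 15.3 and 23.4 CPM in S2A-S7A. For the 188 lower non-coding RNAs as a group the median levels were 6.38 CPM in Y1F-S7A and 12 CPM in S2A-S7A, and 185 had the same sign in both comparisons.

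The gene efr3 (lower) and mdm31 (higher) were called in both comparisons, and pho1 was called in the second alone, at 767 and 991 CPM in Y1F-S7A and 2518 and 2004 CPM in S2A-S7A. Its log2 fold change there was -1.36 ± 0.19 (edgeR adjusted p 0.028), against 0.05 ± 0.19 between Y1F and S2A. The test of the change in this difference gave an edgeR adjusted p of 0.14, which passed the threshold with the replicate block (0.021) and in DESeq2 (4.1e-05) but not without the block or in the fit of the compared libraries alone (0.47).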

How the data were processed

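Strand-specific, polyadenylated RNA libraries of 16 fission yeast cultures were sequenced. Alignment used Bowtie 0.12.7, per the submitters' processing notes. Neither a genome build nor an annotation version nor a counting tool is stated in the sources used. The authors deposited read counts for 7022 features, which were the input for every test. The deposited table also holds log2 RPKM values and, per the file headers, log2 fold changes and adjusted p-values of the authors' DESeq runs, none of which compares Y1F with S2A and none of which was used. Library totals over the features were between 18677921 and 31254978 reads. Of the features, 6844 were named by locus tag and 22 by synonym from the RefSeq annotation.

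Counts were fitted with edgeR 4.0.16 (R 4.3.3) over all 16 libraries with 1 coefficient per strain, its filter on low counts and TMM factors, which left 6420 features, 8 residual degrees of freedom and a biological coefficient of variation of 19.3%. Quasi-likelihood tests were two-sided, with Benjamini-Hochberg adjustment over all features and a threshold of 0.05, and the script was tested on simulated data. CPM values use the TMM-scaled totals. Standard errors are of the log2 fold change. The p-values measure the spread between 2 cultures per strain. Alternatives were RLE factors, no filter, a replicate block, the compared libraries alone, DESeq2 1.42.0 and fits without 1 library. Libraries of the same number deviated together in all 28 pairs of strains. The correlation of deviations from the strain means was 0.245 to 0.667, and 0.441 for Y1F with S2A. Libraries of a number thus share an effect, but its source is not stated and the labels do not say that cultures were paired. It was seen in 3228 features, of which 1596 rose and 1632 fell from library 1 to library 2. The fit without the block has no term for this effect. The block's values are given beside most results whose call or count it changes.

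Features not protein-coding in RefSeq were called non-coding RNAs by an SPNCRNA identifier or a non-coding RefSeq biotype, and 156 features had no RefSeq match. Antisense partners are those of the deposited table. Motifs were searched in 250 bases before each RefSeq gene start. The strains compared, the gene lists, the naming rule and the alternatives were chosen with earlier results of these data known, and a few wrongly resolved symbols were taken out of the lists after the files were opened. The classes of level, the classes of partner level and the counts by symbol prefix were chosen after values were seen.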

Additional observations from a re-analysis of the deposited data

Results flagged for a closer look

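The difference between Y1F and S2A was itself tested against the difference between Y1F-S7A and S2A-S7A, and 2 of 6420 features passed that test in edgeR, where 280 had an unadjusted p under 0.05. For SPNCRNA.1487 the second difference minus the first was -3.36 ± 0.31 (SE) on the log2 scale, with an edgeR adjusted p of 0.00096, from -0.42 for Y1F-S7A over S2A-S7A and 2.94 for Y1F over S2A. For SPBC23G7.10c it was -5.90 ± 0.76, with an edgeR adjusted p of 0.019, from 0.14 and 6.04. SPNCRNA.1487 passed in all 8 fits without 1 library and SPBC23G7.10c in 3 of the 8, and neither passed when the 8 libraries of these strains were fitted alone. Both features lie in the mating-type region, and S2A is the only h+ strain among the 4, so mating type and the S7A background cannot be told apart as sources of this change.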

How the results depend on the processing

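RLE factors and no low-count filter moved no count of calls by over 1.5 times. Of the 56 called features named by the rule, RLE factors lost nmt1 (edgeR adjusted p 0.053) and the fit with no filter lost nmt1 (0.054) and mal1 (0.056), whose adjusted p both round to 0.05 with TMM factors and the filter. None of the 56 changed sign in any alternative, while 6 named features without a call did in fits without 1 library (leu1, pho84, fio1, mfm3, map3 and SPBC23G7.13c). With the replicate block, which the shared numbers justify, there were 1087 calls between Y1F and S2A (385 without it), 291 between Y1F-S7A and S2A-S7A (10), 25 in the change of the difference (2), 329 among non-coding RNAs (200) and 131 among genes of the lists. It lost no named call and added rpp202. DESeq2 gave 618, 148 and 39 calls in the 3 tests and 70 among genes of the lists, losing no named call and adding rpp202. Fitting only the compared libraries gave 246, 2 and 0 calls, lost 14 named calls and added fip1 and str3. Leaving out each library in turn, with a lone library assumed to vary like the other strains, gave 159 to 216, 0 to 8 and 1 to 2 calls in the 3 tests, 98 to 129 among non-coding RNAs, 30 to 36 among named features and 14 to 20 among genes of the lists. With 2 libraries per strain, weakly expressed features are the ones least resolved.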

Other observations

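Genes whose symbols begin with mug, meu or mde, series of genes named for their expression in meiosis, were counted after their names were seen among the lower calls. Of 114 tested coding genes with such a symbol, 12 were lower in Y1F than in S2A (10.5%) and none was higher, with a median log2 fold change of -0.13. Of the other 4880 coding genes, 102 were lower (2.09%) and 69 higher, with a median of 0.02. With the replicate block, 18 of the 114 were lower and 5 higher.

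Coding genes that were lower in Y1F were longer than the rest. The median feature length was 2692 bases for the 114 lower genes, 1663 bases for the 69 higher genes and 1901 bases for those not called, and the median of the average log2 CPM was 4.67, 5.34 and 6.45 in these groups. Whether length plays a part in the calls was not tested.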
